A study of Mus musculus with 6 samples.

Results

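Collagens, other matrix proteins and genes of the cells that make them were examined in the liver of p62S351E/+ mice. The list holds 40 genes, chosen by name from the 24411 gene symbols of the count table, and falls by role into 7 groups: fibrillar collagens, collagens VI and XIV, basement membrane proteins, fibronectin with elastic fibre and other glycoproteins, small leucine-rich proteoglycans, proteases with their inhibitors, and genes of hepatic stellate and other mesenchymal cells. Total RNA was taken from whole liver at postnatal day 19 (P19), ribosomal RNA was depleted, and 1 library was sequenced from each of 3 p62+/+ and 3 p62S351E/+ mice. p62, encoded by Sqstm1, is an autophagy receptor, and p62S351E/+ mice carry 1 allele in which Ser351 was replaced by Glu as a mimic of phosphorylation, beside 1 wild-type allele. No other allele or treatment was given for either genotype. The knock-in was made by prime editing in mouse embryonic stem cells and passed through 1 male chimera of low chimerism, whose sperm was used for in vitro fertilization, so the line goes back to 1 founder.

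In the liver, collagens I, III and V assemble into fibrils of the portal tracts and of scar tissue. Collagen IV, laminin, nidogen and perlecan build the basement membranes of vessels and ducts. Stellate cells and portal fibroblasts produce most of the fibrillar collagen and most of the inhibitors of matrix proteases, and hepatocytes secrete much of the fibronectin found in plasma. Sparc, Timp2, Timp3 and Reln are also transcribed in the brain.

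The libraries held between 8696712 and 10341622 estimated counts, but only 134911 to 315436 of these fell outside Rn45s, Lars2 and Mir6236, and p62S351E/+ mouse 1 had the smallest share left for all other genes. Most matrix genes therefore rested on few counts in a mouse. Values below are normalized counts, that is, estimated counts corrected for library size by TMM factors, and each is given for mice 1, 2 and 3 in that order. The 3 p62S351E/+ libraries did not form 1 kind. Summed over 10 brain marker genes, the p62+/+ mice had 2025, 2114 and 1999 normalized counts and the p62S351E/+ mice 38.1, 40.3 and 1923, and Snap25, Gfap, Stmn2 and Gad1 had no count in p62S351E/+ mice 1 and 2. p62S351E/+ mouse 3 thus carried brain transcripts at the level of the p62+/+ libraries. For Xist, estimated counts were 70.8, 1505 and 1071 in p62+/+ livers against 1, 0 and 1537 in p62S351E/+ livers, and no source used here gives the sex of the mice. Fold changes of the members described are therefore also given without p62S351E/+ mouse 3, and sums are given mouse by mouse. Hepatocyte markers such as Alb were abundant throughout, with sums of 12329, 11167 and 11816 normalized counts in p62+/+ livers and 17838, 27198 and 12632 in p62S351E/+ livers. Sqstm1 itself had 77.8, 73.0 and 86.4 normalized counts in p62+/+ livers and 105, 97.0 and 89.9 in p62S351E/+ livers, which does not check a change of 1 codon.

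Col1a2, Eln, Col3a1, Timp2, Col1a1, Col5a1, Col6a1 and Sparc had the lowest log2 fold changes of the members tested in p62S351E/+ liver, from −2.27 to −1.23, whereas Col18a1 and Nid1 of the basement membrane were the only members whose 3 p62S351E/+ values all lay above the p62+/+ values. By edgeR's quasi-likelihood test with Benjamini-Hochberg adjustment over the 5945 genes that passed the filter on low counts, 0 of the 23 members tested were called in either direction (adjusted p below 0.05, and a log2 fold change beyond 1 in size). Over all genes tested, 0.841% were called higher and 0.0841% lower. DESeq2, limma-voom and edgeR's legacy method each called 1 member, Col3a1, lower. Their shares over all genes are not given here, so these calls are a description only. At an unadjusted p under 0.05, edgeR found 7 members lower, which is 30.4% of those tested against 5.55% of all genes, and 2 members higher against 9.02% of all genes. The p62S351E/+ values lay below the whole p62+/+ range for 10 of the 23 members (43.5%, against 14.7% of all genes tested) and above it for 2 (8.70%, against 12% of all genes). The median log2 fold change of the 23 members was −0.56, against −0.03 for all genes tested. In every alternative fit, 16 members kept a fold change below 0 and 2, Col18a1 and Nid1, one above 0. This count too has no share over all genes beside it. The filter acted on estimated counts relative to library totals, before TMM scaling, and members could pass it through the p62+/+ mice alone. Of the 23 members, 4 had under 10 normalized counts in every p62S351E/+ mouse, whereas 0 were that low in every p62+/+ mouse. Further members passed only with the p62+/+ mice, such as Timp2 and Col3a1. Their estimated counts in p62S351E/+ mice were 3, 7 and 49 for Timp2 and 7, 10 and 24 for Col3a1. The shares above therefore describe the members tested and are no support for a fall of the list. In whole tissue, fewer cells of a type and less RNA per cell cannot be told apart.

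Without p62S351E/+ mouse 3, 8 of 24 members tested were called lower (33.3%, against 15.3% of 6390 genes) and 0 were called higher (against 5.21%). They were Col1a2, Col3a1, Col5a1, Col6a1, Eln, Sparc, Timp2 and Timp3. In both p62S351E/+ mice left, 6 of these 8 genes, and 9 of the 24 tested, had under 10 normalized counts and passed the filter through the p62+/+ mice. Col3a1 passed through the p62+/+ mice too, at 7 and 10 estimated counts in p62S351E/+ mice 1 and 2. The 8 calls are therefore a description and no support for a fall of the list. In mouse 3, 7 of the 8 genes lay below every p62+/+ mouse, and Timp3 did not. Of all 975 genes called lower without mouse 3, 52% lay below every p62+/+ mouse in it. The 8 genes were called against the same p62+/+ mice, so this too is a description only. Brain markers summed to 38.1 and 40.3 normalized counts in the 2 mice left in this comparison against 1999 to 2114 in the p62+/+ mice, and their part in its calls was not tested.

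**Figure D1:**
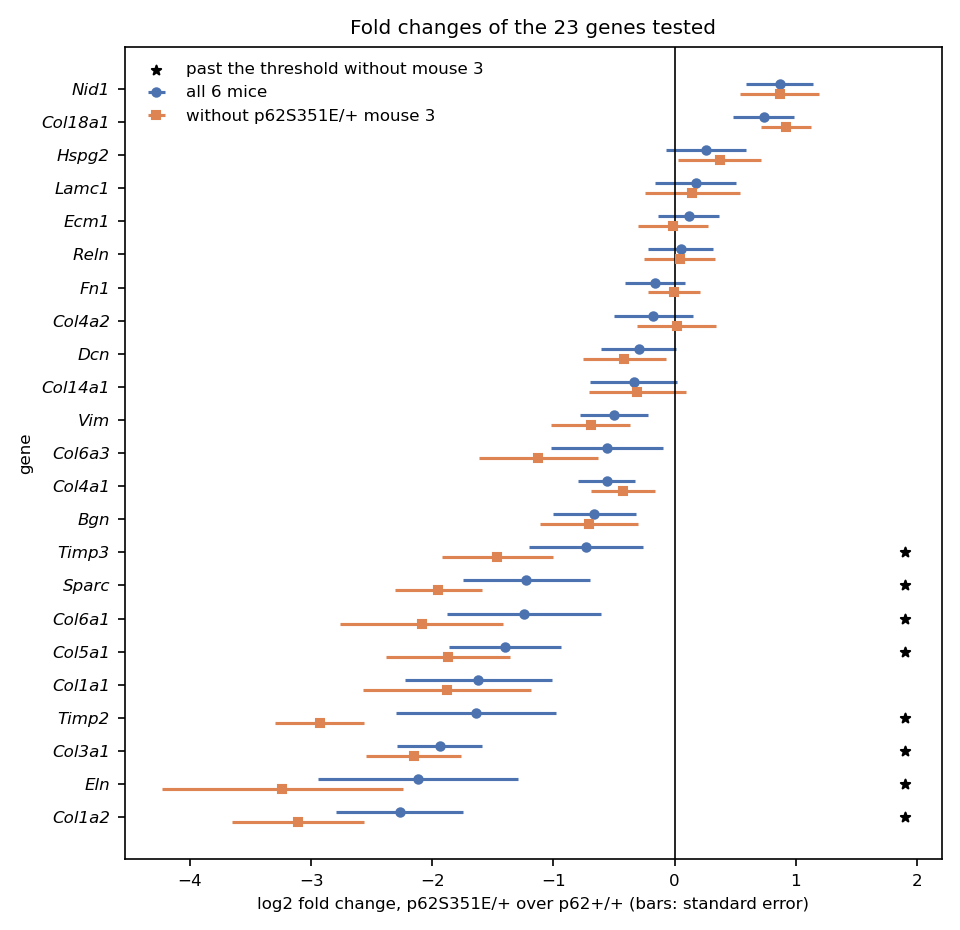
Log2 fold changes of p62S351E/+ over p62+/+ liver (horizontal axis) for the 23 members tested, by edgeR with all 6 mice (circles) and without p62S351E/+ mouse 3 (squares), with bars for 1 standard error. Stars mark the 8 genes past the threshold without mouse 3; Nid1 and Col18a1 stand at the top and Col1a2 at the bottom.

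To show the start regions of genes at both ends of this order, the 250 bases before the annotated start were read from RefSeq (GRCm38.p6, the build of mm10) for Col1a2, Col3a1 and Timp2, which were low in p62S351E/+ mice, and for Nid1, which was high. The table held 28 of the 40 genes. Col1a1, Col5a2, Col14a1, Lamc1, Fn1, Eln, Mgp, Dcn, Lum, Mmp2, Pdgfrb and Tagln had no entry. Capitals mark matches, on either strand, to 5 motifs, none of which overlapped another in these windows. They were the letters CCAAT (the box named after them), TATAAA (the box that binds the TBP subunit), GGGCGG (the GC box of Sp1 factors), TGACNNNGC (the core of the antioxidant response element, which NRF2 binds) and TGACTCA (the AP-1 site).
Col1a2 (chr6:4505368-4505617, plus strand): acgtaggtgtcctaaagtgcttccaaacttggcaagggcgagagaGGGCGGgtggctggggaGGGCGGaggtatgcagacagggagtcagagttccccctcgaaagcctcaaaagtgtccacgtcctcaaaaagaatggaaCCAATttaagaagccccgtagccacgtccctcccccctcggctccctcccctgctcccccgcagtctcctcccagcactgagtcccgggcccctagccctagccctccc
Col3a1 (chr1:45311288-45311537, plus strand): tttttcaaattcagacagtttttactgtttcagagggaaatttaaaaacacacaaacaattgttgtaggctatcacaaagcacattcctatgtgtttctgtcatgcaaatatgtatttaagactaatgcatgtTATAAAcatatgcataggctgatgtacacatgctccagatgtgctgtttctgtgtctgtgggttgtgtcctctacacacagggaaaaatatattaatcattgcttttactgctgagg
Timp2 (chr11:118355412-118355661, minus strand): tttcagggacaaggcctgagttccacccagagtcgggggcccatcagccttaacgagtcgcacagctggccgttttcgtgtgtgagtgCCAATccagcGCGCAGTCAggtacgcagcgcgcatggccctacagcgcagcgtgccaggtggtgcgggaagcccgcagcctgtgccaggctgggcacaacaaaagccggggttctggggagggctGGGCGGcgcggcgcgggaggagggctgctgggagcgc
Nid1 (chr13:13437352-13437601, plus strand): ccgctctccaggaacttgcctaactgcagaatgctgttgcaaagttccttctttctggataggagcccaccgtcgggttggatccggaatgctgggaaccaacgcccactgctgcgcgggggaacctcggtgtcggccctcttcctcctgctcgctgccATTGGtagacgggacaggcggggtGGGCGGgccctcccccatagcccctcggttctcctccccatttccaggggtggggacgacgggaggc

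The 4 regions differed in what they held. Col1a2 had a CCAAT box 109 to 105 bases before the start and 2 GC boxes further out. Col3a1 had the letters of the TATA box 117 to 112 bases before the start and none of the other motifs. Nid1 had a CCAAT box on the opposite strand and a GC box. Timp2 had a CCAAT box, a GC box and 1 match to the antioxidant response element core on the opposite strand. Of the 28 members with a sequence, 10 held a CCAAT box, 18 a GC box and 3 a TATA box, against 33.9%, 32.7% and 12.4% of all 32851 windows of this length. The 28 members had 32 windows, and a member counted if any of its windows matched. The percentages here are per window, so the 2 are not on the same footing. The antioxidant response element core was found in Col4a2, Col6a2 and Timp2, and in 10.2% of all windows, and the AP-1 site in Col6a1 and Ecm1, and in 4.46% of all windows. These matches describe the letters of the windows and say nothing of binding.

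Summed fibrillar collagens lay below the p62+/+ range in every p62S351E/+ mouse, and all 4 genes tested had fold changes below 0, although 0 of them were called. Col3a1 (chr1:45311538-45349706, plus strand), the chain of collagen III, had 86.7, 38.0 and 49.2 normalized counts in p62+/+ livers and 13.3, 12.6 and 18.6 in p62S351E/+ livers. The highest p62S351E/+ value lay well below the lowest p62+/+ value (log2 fold change −1.94 ± 0.35 (SE), adjusted p = 0.0513; edgeR). Over the alternative fits the adjusted p of Col3a1 lay between 0.00181 and 0.206, and 6 of them called it lower. Without mouse 3 its log2 fold change was −2.16 ± 0.39, adjusted p = 0.00181 (edgeR). Col1a2 (chr6:4505618-4541543, plus strand), the second chain of collagen I, had 42.5, 17.1 and 22.5 normalized counts in p62+/+ livers and 3.81, 2.52 and 9.30 in p62S351E/+ livers. Its groups did not overlap either, at 2, 2 and 12 estimated counts in the p62S351E/+ mice (log2 fold change −2.27 ± 0.53 (SE), adjusted p = 0.109; edgeR), and it was called without mouse 3 (−3.11 ± 0.55, adjusted p = 0.00139; edgeR). Col5a1 (chr2:27886381-28039510, plus strand), the chain of collagen V that sets fibril diameter, had 30.5, 15.5 and 14.7 normalized counts in p62+/+ livers and 7.62, 3.78 and 10.8 in p62S351E/+ livers. These groups were separate as well (log2 fold change −1.40 ± 0.46 (SE), adjusted p = 0.242, and without mouse 3 −1.87 ± 0.51, adjusted p = 0.0190; edgeR).

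Col1a1, the first chain of collagen I, behaved like Col1a2 in its mean but not in its spread. It had 44.1, 8.54 and 16.4 normalized counts in p62+/+ livers and 7.62, 5.04 and 9.30 in p62S351E/+ livers, so that p62+/+ mouse 2 fell among the p62S351E/+ mice (log2 fold change −1.62 ± 0.61 (SE), adjusted p = 0.292, and without mouse 3 −1.88 ± 0.69, adjusted p = 0.0784; edgeR). Without p62+/+ mouse 1 the log2 fold change of Col1a1 was −0.74. p62+/+ mouse 1 was the highest of all 6 mice for each of Col1a1, Col1a2, Col3a1 and Col5a1. The fifth gene, Col5a2, which lies 24624 bases from Col3a1 on chromosome 1, had at most 8 estimated counts in a mouse and did not pass the filter. Summed over the 5 genes, fibrillar collagens amounted to 210.3, 85.4 and 107 normalized counts in p62+/+ livers and to 36.2, 23.9 and 53.5 in p62S351E/+ livers, or 27.0%, 17.8% and 39.8% of the p62+/+ mean. Brain markers were low in p62S351E/+ mice 1 and 2 and not in mouse 3, and their part in these values was not tested in any mouse.

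**Figure D2:**
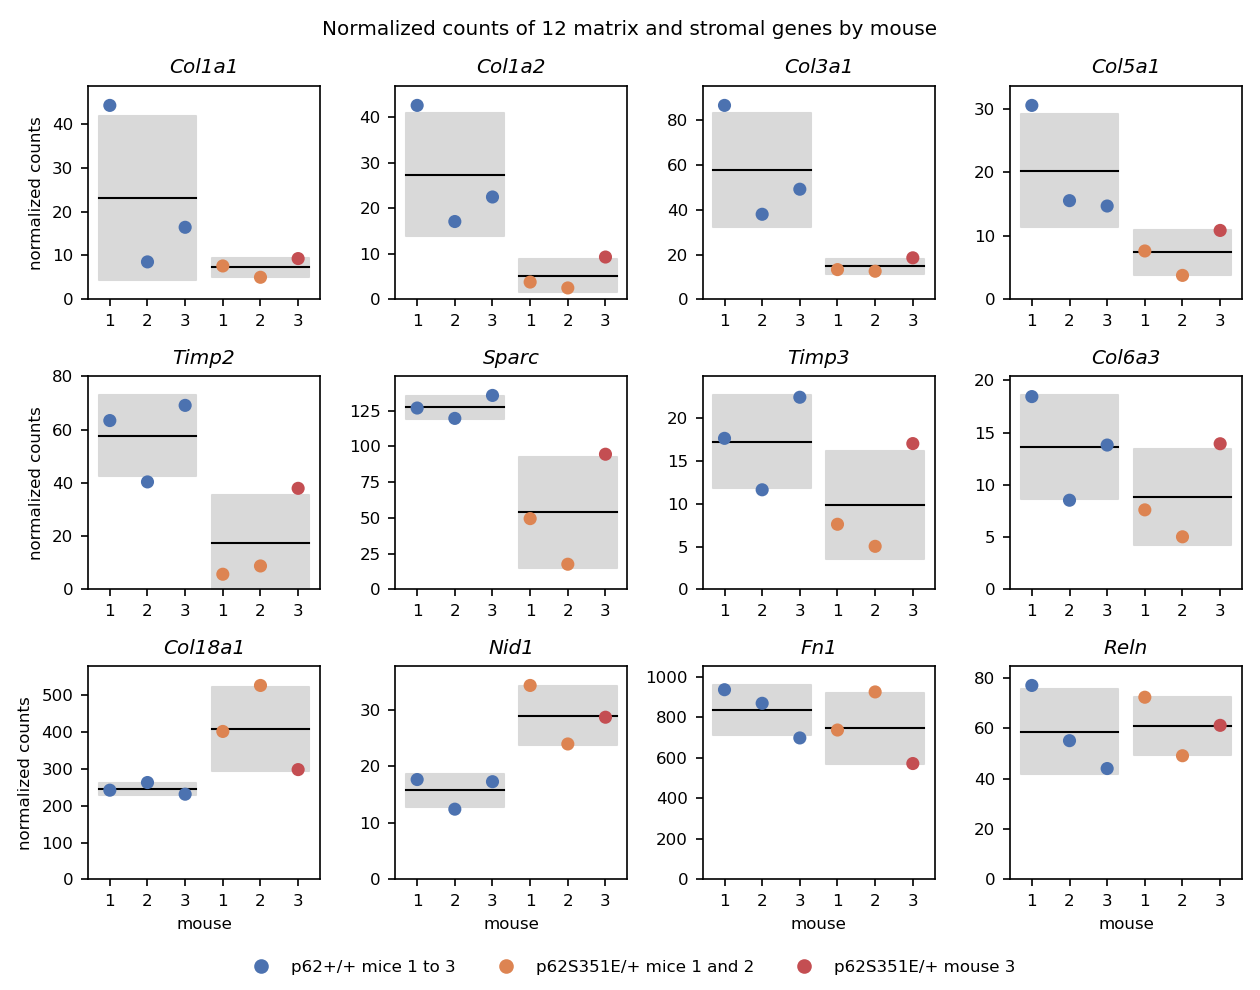
Normalized counts (vertical axes, each from 0) of 12 members in each mouse, with the group mean as a line and 1 SD on either side as a grey band, drawn from 0 upward. Col3a1, Col1a2 and Col5a1 lie lower in all 3 p62S351E/+ mice, Timp2 and Sparc do so with mouse 3 apart from mice 1 and 2, Col18a1 and Nid1 lie higher, and Fn1 and Reln overlap.

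Collagens VI and XIV, which lie on or beside fibrils and link them to cells and to each other, had smaller fold changes, and 0 of the 3 tested were called. Col6a3 (chr1:90766860-90844001, minus strand) had 18.5, 8.54 and 13.8 normalized counts in p62+/+ livers and 7.62, 5.04 and 13.9 in p62S351E/+ livers. Only mice 1 and 2 were below the p62+/+ range (log2 fold change −0.56 ± 0.46 (SE), adjusted p = 0.575, and without mouse 3 −1.13 ± 0.49, adjusted p = 0.127; edgeR), and mouse 3 was above 2 of the 3 p62+/+ mice. Col14a1 (chr15:55307644-55520803, plus strand), the highest of this group per kilobase of exon, had 32.9, 22.5 and 19 normalized counts in p62+/+ livers and 28.6, 12.6 and 18.6 in p62S351E/+ livers. Its groups overlapped (log2 fold change −0.34 ± 0.36 (SE), adjusted p = 0.648, 95% interval −1.04 to 0.36 with all mice, and without mouse 3 −0.31 ± 0.40, adjusted p = 0.639; edgeR). The 95% intervals of fold changes, here and below, are nominal. They treat the SE as normal and are narrower than edgeR's test would give. Col6a1 and Col6a2, which lie 85161 bases apart on chromosome 10, were sparse. Col6a1 had 19, 10 and 9 estimated counts in p62+/+ livers and 2, 1 and 9 in the p62S351E/+ mice, and it was called without mouse 3 (−2.09 ± 0.67, adjusted p = 0.0418; edgeR). Col6a2 had 8, 6 and 2 counts in p62+/+ livers and 0, 0 and 5 in the p62S351E/+ mice and did not pass the filter.

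Basement membrane genes had fold changes of both signs, 4 above and 2 below 0, and 0 of the 6 tested were called. Col18a1 (chr10:77052178-77166530, minus strand), whose chain carries endostatin at its end, had 242, 263 and 231 normalized counts in p62+/+ livers and 402, 527 and 298 in p62S351E/+ livers. All p62S351E/+ values were above the p62+/+ values, and mouse 3 was the closest to them (log2 fold change 0.73 ± 0.25 (SE), adjusted p = 0.255; edgeR). Without mouse 3 the adjusted p passed but the fold did not reach the threshold (0.92 ± 0.20, adjusted p = 0.00628; edgeR). Nid1 (chr13:13437602-13512275, plus strand), which joins laminin to collagen IV, had 17.7, 12.4 and 17.3 normalized counts in p62+/+ livers and 34.3, 23.9 and 28.7 in p62S351E/+ livers. Here mouse 3 lay between mice 1 and 2 (log2 fold change 0.87 ± 0.28 (SE), adjusted p = 0.236, and without mouse 3 0.87 ± 0.33, adjusted p = 0.0830; edgeR). Col4a1 (chr8:11198423-11312889, minus strand) had 36.1, 37.3 and 35.4 normalized counts in p62+/+ livers and 24.8, 29.0 and 20.1 in p62S351E/+ livers. It was the only tested basement membrane gene that was lower in all 3 p62S351E/+ mice, with p62+/+ mice close together and p62S351E/+ mouse 3 the lowest (log2 fold change −0.56 ± 0.23 (SE), adjusted p = 0.327, and without mouse 3 −0.43 ± 0.26, adjusted p = 0.290; edgeR).

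Col4a2 (chr8:11312805-11449287, plus strand) encodes the partner of Col4a1 in collagen IV and starts next to it on the opposite strand. It had 47.3, 24.8 and 28.5 normalized counts in p62+/+ livers and 38.1, 30.2 and 21.7 in p62S351E/+ livers. The groups overlapped, and the sign of its fold change turned without p62S351E/+ mouse 3 or without p62+/+ mouse 1 (log2 fold change −0.18 ± 0.33 (SE), adjusted p = 0.809, and without mouse 3 0.02 ± 0.33, adjusted p = 0.978; edgeR). Hspg2 (chr4:137468751-137570630, plus strand), which encodes perlecan, had 42.5, 34.2 and 19.9 normalized counts in p62+/+ livers and 51.4, 32.8 and 32.5 in p62S351E/+ livers. It overlapped too, as did Lamc1, a laminin chain, and the fold changes of both were small and turned negative when libraries were scaled by their totals alone (Hspg2 0.26, 95% interval −0.39 to 0.90, and 0.37 without mouse 3, and Lamc1 0.17, 95% interval −0.49 to 0.83, and 0.15 without mouse 3, by edgeR). Lamb1 and Col15a1 had at most 13 estimated counts in a mouse and did not pass the filter. When libraries were scaled by their totals alone, at a median of −0.68 over all genes, the fold changes of Col18a1 and Nid1 were 0.0078 and 0.19. Summed, the 8 genes had 418, 393 and 349.8 normalized counts in p62+/+ livers and 575, 665 and 423 in the p62S351E/+ mice, a sum that Col18a1 dominated.

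Fibronectin and the other glycoproteins were uneven, with 4 genes tested and 0 called. Fn1 (chr1:71585473-71653280, minus strand), the fibronectin gene and the member with the highest level per kilobase of exon, had 936, 869 and 698 normalized counts in p62+/+ livers and 737, 925 and 572 in p62S351E/+ livers. The groups overlapped and the fold change was near 0 (log2 fold change −0.16 ± 0.25 (SE), adjusted p = 0.758, 95% interval −0.65 to 0.32 with all mice, and without mouse 3 −0.01 ± 0.21, adjusted p = 0.988; edgeR). Sparc (chr11:55394159-55420080, minus strand), a collagen-binding protein of the matrix, had 127, 119.5 and 136 normalized counts in p62+/+ livers and 49.5, 17.6 and 94.5 in p62S351E/+ livers. The p62+/+ mice were close together, whereas the p62S351E/+ mice were spread widely (log2 fold change −1.23 ± 0.52 (SE), adjusted p = 0.350; edgeR). Without mouse 3 Sparc was called lower (−1.95 ± 0.36, adjusted p = 0.00228; edgeR). Mouse 3 was still below the p62+/+ range.

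Eln, the elastin gene, had 35, 15 and 9 estimated counts in p62+/+ livers and 2, 0 and 8 in the p62S351E/+ mice, a wide spread within both genotypes (log2 fold change −2.12 ± 0.83 (SE), adjusted p = 0.309, and without mouse 3 −3.24 ± 0.99, adjusted p = 0.0349; edgeR). Without p62+/+ mouse 1 it was −1.43. Ecm1, which keeps latent TGF-beta inactive in liver, had 28.9, 34.9 and 31.1 normalized counts in p62+/+ livers and 38.1, 25.2 and 39.5 in p62S351E/+ livers, and its groups overlapped, with a sign that depended on the scaling (log2 fold change 0.11 ± 0.25 (SE), adjusted p = 0.842, 95% interval −0.38 to 0.61 with all mice, and without mouse 3 −0.01 ± 0.29, adjusted p = 0.979; edgeR). Fbn1, the fibrillin gene, had 17, 4 and 10 counts in p62+/+ livers and 4, 5 and 6 in the p62S351E/+ mice and did not pass the filter with all mice. Its log2 fold change was −0.52 ± 0.55 with no filter (adjusted p = 0.733; edgeR) and, without mouse 3, −0.29 ± 0.62, adjusted p = 0.789 (edgeR). Fbln1 and Fbln5, which encode fibulins, and Mgp and Dpt, for matrix Gla protein and dermatopontin, had at most 6 counts in a mouse. Both fibulin genes were at 0 in p62S351E/+ mice 1 and 2 but not in mouse 3, where Fbln1 had 3 counts and Fbln5 had 4. Mgp had 2 counts in p62+/+ mouse 1 and 0 elsewhere.

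The small leucine-rich proteoglycans decorin, biglycan and lumican coat collagen fibrils. Dcn (chr10:97479500-97518163, plus strand) had 44.9, 35.7 and 27.6 normalized counts in p62+/+ livers and 36.2, 18.9 and 33.3 in p62S351E/+ livers. Only p62S351E/+ mouse 2 was outside the p62+/+ range (log2 fold change −0.30 ± 0.31 (SE), adjusted p = 0.644, 95% interval −0.90 to 0.31 with all mice, and without mouse 3 −0.41 ± 0.34, adjusted p = 0.435; edgeR). Bgn (chrX:73483601-73495936, plus strand) had 15.2, 14.0 and 20.7 normalized counts in p62+/+ livers and 13.3, 7.56 and 10.8 in p62S351E/+ livers. These groups did not overlap, although p62S351E/+ mouse 1 came within 1 count of p62+/+ mouse 2 (log2 fold change −0.66 ± 0.34 (SE), adjusted p = 0.408, and without mouse 3 −0.70 ± 0.41, adjusted p = 0.250; edgeR). Lum, which lies 47337 bases from Dcn on chromosome 10, had 5, 2 and 3 estimated counts in p62+/+ livers and 1, 0 and 0 in the p62S351E/+ mice.

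Among inhibitors of matrix metalloproteinases, Timp2 showed the widest gap within the p62S351E/+ group. Timp2 (chr11:118301061-118355411, minus strand) had 63.4, 40.4 and 69.1 normalized counts in p62+/+ livers and 5.71, 8.82 and 38.0 in p62S351E/+ livers. Mice 1 and 2 were far below every p62+/+ mouse, and mouse 3 was just below the lowest of them (log2 fold change −1.64 ± 0.66 (SE), adjusted p = 0.335; edgeR). Without mouse 3 it had the smallest adjusted p of the members (−2.93 ± 0.37, adjusted p = 1.5e-04; edgeR). Timp3 (chr10:86300412-86349505, plus strand), which is bound to the matrix, had 17.7, 11.6 and 22.5 normalized counts in p62+/+ livers and 7.62, 5.04 and 17.0 in p62S351E/+ livers. Mouse 3 was inside the p62+/+ range and mice 1 and 2 were below it (log2 fold change −0.73 ± 0.47 (SE), adjusted p = 0.487, and without mouse 3 −1.46 ± 0.46, adjusted p = 0.0373; edgeR). Mmp2, a gelatinase of stellate cells and fibroblasts, had 5, 5 and 2 estimated counts in p62+/+ livers and 1 in each p62S351E/+ mouse and did not pass the filter.

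Of the 8 genes of stellate and other mesenchymal cells, 2 had enough counts for the test and 0 were called. Reln (chr5:21884454-22344705, minus strand), the reelin gene, which stellate cells express in liver, had 77.0, 55.1 and 44.0 normalized counts in p62+/+ livers and 72.4, 49.1 and 61.2 in p62S351E/+ livers. The groups overlapped fully, and the sign depended on the scaling (log2 fold change 0.05 ± 0.27 (SE), adjusted p = 0.943, 95% interval −0.48 to 0.58 with all mice, and without mouse 3 0.04 ± 0.29, adjusted p = 0.942; edgeR). Vim (chr2:13574311-13582826, plus strand), an intermediate filament gene of mesenchymal cells, had 30.5, 22.5 and 25.9 normalized counts in p62+/+ livers and 19, 13.9 and 22.5 in p62S351E/+ livers. Its p62S351E/+ values were all lower, by a margin between p62+/+ mouse 2 and p62S351E/+ mouse 3 of less than 1 count (log2 fold change −0.50 ± 0.28 (SE), adjusted p = 0.437, and without mouse 3 −0.69 ± 0.33, adjusted p = 0.160; edgeR). Lrat, which esterifies retinol for storage and marks quiescent stellate cells, had 9, 8 and 8 estimated counts in p62+/+ livers and 2, 4 and 5 in the p62S351E/+ mice. Pdgfrb, the platelet-derived growth factor receptor of these cells, had 11, 8 and 7 against 2, 3 and 6. Des, Acta2, Tagln and Colec11 had between 0 and 8 counts in each mouse, and Acta2 and Tagln, contractile genes of activated cells and smooth muscle, were highest in p62+/+ mouse 1 at 6 and 7 counts. None of these 6 genes passed the filter. With no filter their log2 fold changes lay between −2.04 (Acta2) and −0.69 (Lrat), with adjusted p from 0.643 to 0.785 by edgeR. The values of Lrat and Pdgfrb in all 3 p62S351E/+ mice were below the p62+/+ range, at the few counts given above. No share over genes below the filter stands beside this, and the sums of the 8 genes overlapped between genotypes.

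Over the list as a whole, 17 members did not pass the filter, with 17 counts or fewer in every mouse. A lower mean in p62S351E/+ mice was found for 16 of them, and for 61.5% of the 10374 genes with a count that did not pass. Col15a1 was the one with a higher mean, which rested on 6 counts in mouse 2. In edgeR's fit with no filter, 0 of the 17 were called, 1 (Lamb1) had an unadjusted p under 0.05, and the lowest adjusted p was 0.526. For genes at so few counts, a 0 in p62S351E/+ mouse 1 sets a weak limit, because that library held fewer than 1 count outside the 3 dominant genes for every 2 in a p62+/+ library.

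Within the p62S351E/+ genotype, mouse 3 was set against mice 1 and 2. This compares 1 library with 2 and has no test. The intervals given cover counting error only and not differences between mice. Among the 21 members with a mean of at least 10 normalized counts, mouse 3 was above both other mice for 10 genes (47.6%, against 34.5% of 4904 genes) and below both for 5 (23.8%, against 36.5%). That mean is over all 6 mice, so some members entered through high p62+/+ values. Col1a2, for example, had 3.81, 2.52 and 9.30 normalized counts in p62S351E/+ livers, and Col1a1 had 7.62, 5.04 and 9.30. These shares are a description and no support for a rise of the list in mouse 3. The median difference on the log2 scale, with 1 added to each normalized count, was 0.34, against −0.03 over all genes. It was −0.12 against mouse 1 alone and 0.53 against mouse 2 alone, so the median rests on mouse 2. Over members with a mean of at least 20 normalized counts the median difference was smaller, as given in the closing section.

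The highest ratio of mouse 3 to mice 1 and 2 was that of Timp2, 5.01 (95% interval 2.51 to 11.1). For Sparc the ratio was 3.12 (95% interval 2.16 to 4.57), and for Timp3 it was 2.81 (95% interval 1.20 to 7.30). These 3 intervals lie above 1, whereas those of Col1a2, 3.07 (95% interval 0.929 to 13.0), and of Col6a3, 2.3 (95% interval 0.951 to 6.11), reach below it. Col5a1 had a ratio of 2.04 (95% interval 0.772 to 5.98) and Col3a1 one of 1.44 (95% interval 0.743 to 2.86). At the other end Col18a1 had a ratio of 0.625 (95% interval 0.549 to 0.711) and Fn1 one of 0.673 (95% interval 0.612 to 0.739), both with intervals below 1. Col4a2 at 0.650 (95% interval 0.390 to 1.07), Col4a1 at 0.738 (95% interval 0.428 to 1.26), Hspg2 at 0.810 (95% interval 0.527 to 1.24) and Col14a1 at 0.981 (95% interval 0.536 to 1.79) could not be told from 1 by counting error. The 6 genes highest in mouse 3 were protease inhibitors, Sparc and collagens of fibrils and of collagen VI. The basement membrane gave 4 of the 6 lowest and 6 of the 21 genes. Its other genes, Nid1 and Lamc1, had ratios of 1.02 and 1.07. Because the genes shown were picked by this difference, their order by group is a description and no support for a pattern.

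Set against the mean of the p62+/+ mice on the same scale, the 4 fibrillar collagens with at least 10 normalized counts had median differences of −1.59, −2.05 and −1.14 in p62S351E/+ mice 1, 2 and 3. Timp2 and Timp3 had medians of −2.06, −2.05 and −0.26. For all 21 genes the medians were −0.28, −0.87 and −0.36, beside 0.34, −0.21 and −0.15 in the p62+/+ mice. Mouse 3 was therefore lower for the fibrillar collagens than for the inhibitors. Of the inhibitors, Timp3 was at 0.03 in mouse 3, and Timp2 was at −0.55, below every p62+/+ mouse. Mouse 3 had 1923 normalized counts of brain markers against 38.1 and 40.3 in mice 1 and 2. The part of brain transcripts in the values of Timp2, Timp3 and Sparc was not tested.

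**Figure D3:**
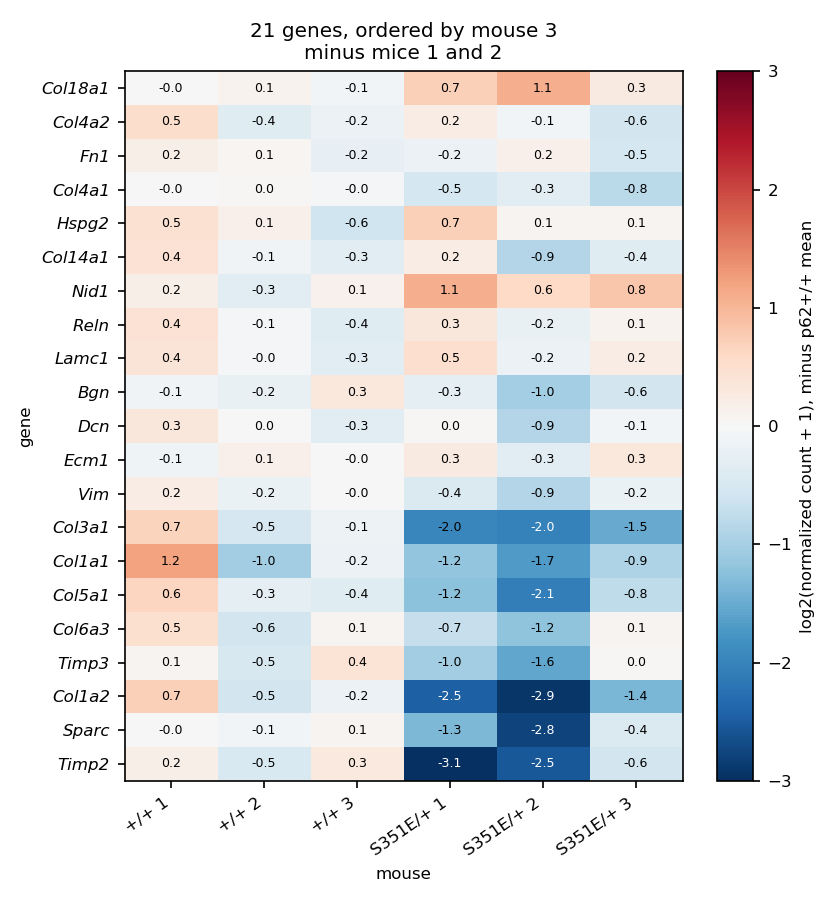
Log2 of the normalized count plus 1, minus the mean of the p62+/+ mice, for the 21 members with a mean of at least 10 normalized counts (rows) in each mouse (columns), ordered by mouse 3 minus mice 1 and 2. Timp2 and Sparc, at the bottom, are low in p62S351E/+ mice 1 and 2. In mouse 3 they are less low, at −0.55 and −0.42, but still below every p62+/+ mouse. Col3a1 and Col1a2 are low in all 3 p62S351E/+ mice, and Col18a1, at the top, is high in all 3.

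The summed level of the 40 genes did not separate the genotypes. It was 2134, 1771 and 1622 normalized counts in p62+/+ livers and 1660.5, 1798 and 1438 in the p62S351E/+ mice, and Fn1 and Col18a1 made up the larger part of it. Without these 2 genes the sum was 956, 639 and 693 in the p62+/+ mice and 522, 346 and 568 in the p62S351E/+ mice, which did not overlap. The split into Fn1 and Col18a1 and the rest was made after their values had been seen. Proteases and inhibitors summed to 85.1, 55.9 and 93.3 in p62+/+ livers and 15.2, 15.1 and 55.8 in p62S351E/+ livers. Stellate and mesenchymal cell genes summed to 139, 98.6 and 95 in p62+/+ livers and 105, 74.3 and 96.1 in p62S351E/+ livers. Small leucine-rich proteoglycans summed to 64.2, 51.2 and 51.0 in p62+/+ livers and 51.4, 26.5 and 44.2 in p62S351E/+ livers.

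Markers of the other liver cells stood beside these sums as follows. Sinusoidal endothelial markers summed to 346, 227 and 259 normalized counts in p62+/+ livers and 368, 219 and 270.2 in the p62S351E/+ mice, with overlap, and 0 of the 7 tested were called by edgeR or DESeq2. Kupffer cell markers summed to 95.5, 83.8 and 104 in p62+/+ livers and 133, 135 and 103 in p62S351E/+ livers, with overlap. Of the 5 tested, edgeR called 0, and 2 had fold changes below 0 and 3 above it. Clec4f was lower in all 3 p62S351E/+ mice than in every p62+/+ mouse, and Cd5l was higher. The Kupffer cell marker Marco, a scavenger receptor that did not pass edgeR's filter, had 1, 1 and 3 estimated counts in p62+/+ livers and 12, 10 and 22 in p62S351E/+ livers. DESeq2 called it higher (log2 fold change 3.63 ± 0.92, adjusted p = 0.0117, in a range of 0.00579 to 0.135 over the alternatives). Cholangiocyte markers summed to 49.0, 97.0 and 116 in p62+/+ livers and 105, 63.0 and 37.2 in p62S351E/+ livers. Hepatocyte markers were highest in p62S351E/+ mouse 2, the mouse with the lowest fibrillar collagen sum, and their part in the matrix values was not tested. Markers of brain fibroblasts and choroid plexus summed to 53.0, 79.2 and 70.8 in p62+/+ livers and 118, 80.6 and 83.7 in p62S351E/+ livers. This sum came mostly from Slc6a13 and Slc47a1, with the other 6 genes at 3 counts or fewer in every mouse and Slc22a6 and Folr1 at 0. In p62S351E/+ mice 1 and 2, where brain markers were low, Slc6a13 had 47.6 and 34.0 normalized counts and Slc47a1 had 68.6 and 44.1. The sum therefore cannot be read as a level of brain fibroblasts or choroid plexus in any mouse.

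**Figure D4:**
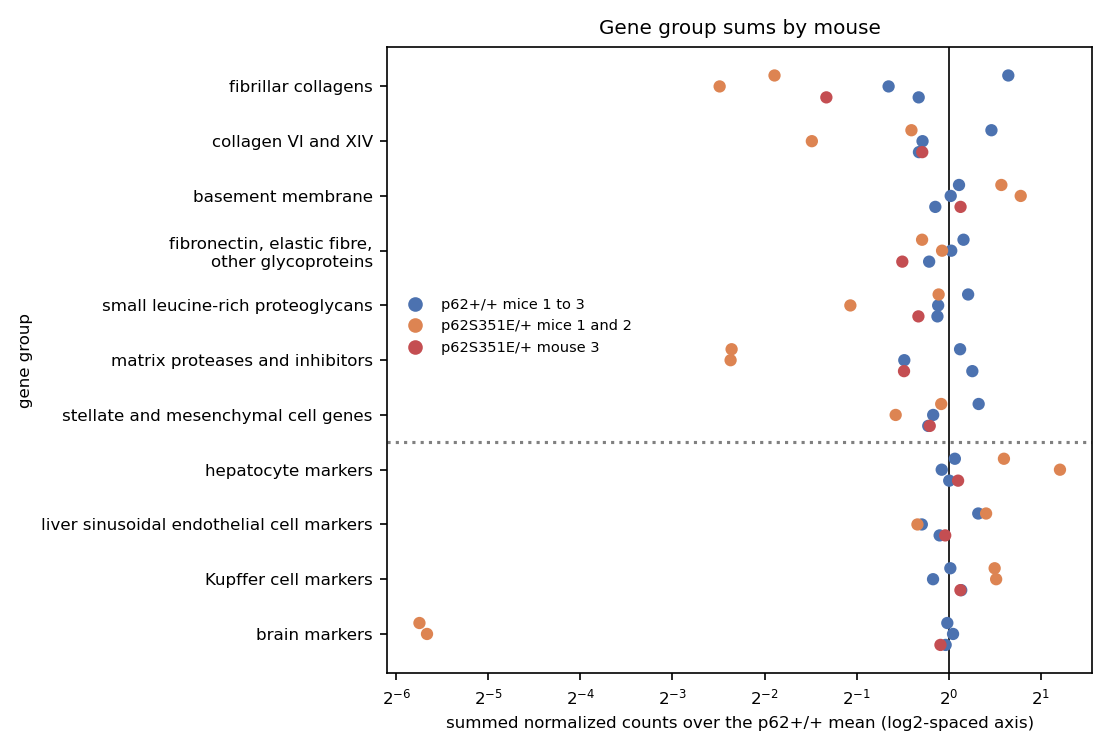
Summed normalized counts of each group of members (above the dotted line) and of marker lists (below it) in each mouse, divided by the p62+/+ mean, on an axis with log2 spacing. Fibrillar collagens are low in all 3 p62S351E/+ mice, proteases and inhibitors chiefly in mice 1 and 2, as are brain markers, whereas the stellate and endothelial sums of the genotypes overlap.

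Other genes of matrix biology, 90 in 6 lists, were read from the same test. Of these, 29 passed the filter, 0 were called by edgeR or by DESeq2 and 1, P4hb, by limma-voom. The share of all genes that limma-voom called is not given here. An unadjusted p under 0.05 by edgeR was found for 3 of the 29, against 14.6% of all genes tested, and their median log2 fold change was 0.04. P4hb, protein disulfide isomerase and a subunit of the enzyme that hydroxylates proline in collagen, had 150.1, 122 and 141 normalized counts in p62+/+ livers and 316, 471 and 207 in p62S351E/+ livers. It was high in every p62S351E/+ mouse, least so in mouse 3 (log2 fold change 1.27 ± 0.31 (SE), adjusted p = 0.120; edgeR). By limma-voom its log2 fold change was 1.19 and its adjusted p 0.0336, in a range of 4.8e-04 to 0.468 over the alternatives. Serpinh1, the collagen chaperone HSP47, had 13.6, 14.0 and 9.50 normalized counts in p62+/+ livers and 3.81, 2.52 and 4.65 in p62S351E/+ livers. Its groups did not overlap, with the p62S351E/+ values below (log2 fold change −1.70 ± 0.45 (SE), adjusted p = 0.149; edgeR). Mmp19, a metalloproteinase, had 11.6, 14.3 and 17.3 normalized counts in p62+/+ livers and 22.9, 37.8 and 23 in p62S351E/+ livers, all higher in p62S351E/+ mice (log2 fold change 0.98 ± 0.32 (SE), adjusted p = 0.237; edgeR).

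Without p62S351E/+ mouse 3, P4hb and Mmp19 were called higher and Serpinh1, Cygb and Thy1 lower by edgeR. These were 2 and 3 of 35 genes tested, against 5.21% higher and 15.3% lower of all 6390 genes. In p62S351E/+ mice 1 and 2, Serpinh1 had 2 and 2 estimated counts, Cygb 1 and 1, and Thy1 0 and 0. Those genes passed the filter through the p62+/+ mice, so the calls are a description only. Thy1, a surface protein of portal fibroblasts and of neurons, had 44.9, 41.1 and 35.4 normalized counts in p62+/+ livers and 0, 0 and 27.9 in p62S351E/+ livers, which followed the brain markers mouse by mouse. Cygb, the stellate cell globin, had 7.22, 7.76 and 9.50 normalized counts in p62+/+ livers and 1.9, 1.26 and 6.2 in p62S351E/+ livers. Among genes of TGF-beta and PDGF signalling the 6 tested lay between −0.66 (Ltbp4) and 0.53 (Tgfbr1) on the log2 scale. The 7 integrins tested lay between −0.34 (Itgav) and 0.66 (Itga5). The 4 other matrix components ran from −0.80 (Lama4) to 0.47 (Col27a1), Mmp14 was at −0.25, and the highest of the stromal list was Gas6 at 0.21.

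Per kilobase of exon, Fn1 had the highest mean level over the 6 mice at 93.1 normalized counts. Col18a1 followed at 48.2 and Sparc at 33.3. Ecm1 at 17.3 and Dcn at 16.9 came next, then Vim at 10.2 and Timp2 at 10.1. Col3a1 was the highest of the fibrillar collagens at 6.54, above Col1a2 at 3.04 and Col1a1 at 2.56. Each fibrillar collagen thus stood well below Fn1 per length.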

How the data were processed

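Total RNA of livers was depleted of ribosomal RNA, made into libraries with NEBNext kits and sequenced as single-end reads on an Illumina NextSeq instrument. Per the labels and the study's methods, reads were trimmed with Trim Galore and mapped to mm10 with STAR, and the authors deposited expected counts per gene symbol from RSEM, without normalization, in which 6.45% of nonzero values were not whole. Versions, strand setting and annotation were not given in the sources used here. Groups and replicate numbers came from the sample labels, and every column was used. Same-numbered mice are different animals, so the numbers name mice and do not pair them. No source says whether libraries were prepared together.

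The expected counts were rounded. In R 4.3.3, genes were filtered by filterByExpr (minimum count 10), scaled by TMM and tested with edgeR 4.0.16 (glmQLFit with legacy set to FALSE, robust, and glmQLFTest), with Benjamini-Hochberg adjustment over 5945 genes, and called at adjusted p below 0.05 with a log2 fold change beyond 1 in size. DESeq2 1.42.0, limma 3.58.1 (voom), other scalings, filters and thresholds, a replicate block and leaving out each mouse were alternatives. Standard errors were obtained from the fold change and its F statistic. The 95% intervals of fold changes took these errors as normal, so they are nominal and narrower than edgeR's test would give. For Sparc such an interval ran from −2.25 to −0.20, at an unadjusted p of 0.0529 by edgeR. Intervals of ratios are exact for counting error at 95%. Tests were checked on simulated counts.

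The members and lists were chosen with earlier results of these data known. Values per mouse are given for members called or without overlap at a mean of at least 10 normalized counts, the 6 with the highest and the 6 with the lowest difference of p62S351E/+ mouse 3 to mice 1 and 2, and the most abundant of each group. Values of Col1a1, Col6a1, Eln, Ecm1, Marco and the sparse genes were added after they had been seen. Of the wider lists, genes called, up to 10 by smallest p and each list's extremes were eligible. Positions and promoters are from RefSeq (GRCm38.p6). The p62S351A mice and other assays were not analysed here.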

Additional observations from a re-analysis of the deposited data

How the results depend on the processing

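The number of members called lower, 0 with all mice, was 1 (Col3a1) with DESeq2, with limma-voom, with edgeR's legacy method, with DESeq2 size factors and with no filter on low counts, and from 0 to 8 when each mouse was left out, the 8 arising without p62S351E/+ mouse 3. For alternatives other than leaving out that mouse, no share over all genes stands beside these counts. The median log2 fold change of the members tested was −1.11 with library size alone (all genes −0.68) and from −0.68 to −0.37 when each mouse was left out. The median difference of mouse 3 to mice 1 and 2 was 1.33 with library size alone (all genes 0.99), 0.018 over members with a mean of at least 20 normalized counts, and −0.12 against mouse 1 alone. The log2 ratio of the sum over 40 members, −0.17, was −0.87 with library size alone, −0.34 with the total outside Rn45s, Lars2 and Mir6236, −0.67 without Fn1 and Col18a1 (chosen after seeing the data), and from −0.26 to −0.06 when each mouse was left out. Among the wider lists the genes called higher numbered 0 to 2 and lower 0 to 3 when each mouse was left out, and limma-voom, tried after seeing the data, called 1 higher and 0 lower. Single genes turned sign near 0, and the cause was not tested. Library size alone gave −0.50 for Lamc1, −0.48 for Hspg2, −0.51 for Ecm1 and −0.63 for Reln. The total outside the 3 genes gave −0.029 for Ecm1 and −0.10 for Reln. At least 10 counts in every library gave −0.071 for Lamc1, −0.0069 for Hspg2, −0.12 for Ecm1 and −0.20 for Reln. Leaving out a mouse gave from −0.014 (p62S351E/+ mouse 3) to 0.30 for Ecm1, from −0.37 to 0.16 (p62+/+ mouse 1) for Col4a2, which was 0.017 without p62S351E/+ mouse 3, and from −0.11 (p62+/+ mouse 3) to 0.30 for Reln, which was −0.078 without p62S351E/+ mouse 1. Of the gene values over alternatives 330 kept their side and sign, 13 passed the threshold in addition and 15 turned sign.

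With the replicate number as a block, 0 members were called in either direction and the median log2 fold change was −0.57. Deviations of same-numbered mice correlated at 0.076, −0.091 and −0.001, so the numbers gave no pairing. The 17 members under the filter have wide errors at this depth.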
